A study of Mus musculus with 4 samples.

Results

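The killer lectin-like receptors are C-type lectin-like membrane proteins encoded together on mouse chromosome 6. Members were all genes whose symbol starts with Klr followed by a letter from a to k and a number, and Klre1, Klrd1 and Klrk1 by name, which gave 26 of the 32285 genes in the count tables. They comprised 11 Klra genes (the Ly49 receptors), 5 Klrb1 genes (NKR-P1), 3 Klrc genes (NKG2), Klrd1 (CD94), Klrk1 (NKG2D), Klre1, Klri1, Klri2, Klrg1 and Klrg2. They were read in leukocytes of tumours grown from CT26, a colon carcinoma line of Balb/c origin, in Balb/c mice 9 weeks old. CD45-positive cells had been selected with magnetic beads and made into droplet single-cell libraries that read the 3' ends of transcripts. 2 libraries came from control mice and 2 from mice treated with liproxstatin-1, an inhibitor of ferroptosis, for 8 days. What the control mice received is not given in the sources used here.

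Inhibitory members of the family, among them most Ly49 receptors and the CD94-NKG2A pair of Klrd1 and Klrc1, carry an intracellular motif that recruits phosphatases when MHC class I molecules are bound. Activating members lack that motif and signal through adaptors, Tyrobp (DAP12) for the activating Ly49 and NKG2C receptors and Hcst (DAP10) for Klrk1. The receptors are best known on natural killer (NK) cells, where each cell turns on its own subset of Ly49 genes, and several appear on activated CD8 T cells. Balb/c mice carry a smaller and different set of Ly49 genes than the C57BL/6 reference, so a Klra count here may come from a related Balb/c gene.

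All 26 genes lie on chromosome 6 of GRCm38 in the GENCODE M21 annotation. Klrg2 spans chr6:38625693-38637242 and Klrg1 chr6:122270596-122282882. The other 24 lie between the start of Klrb1a at 128609227 and the end of Klra2 at 131247362, the NK gene complex. The RefSeq promoter table (GRCm38.p6) held 23 of the 26, all but Klrd1, Klrg1 and Klri2. In the 150 bases before the annotated start, on both strands, the RUNX core TGTGGT was found in 6 of these 23 (Klrb1a, Klrb1c, Klrc1, Klrc2, Klrc3 and Klrk1) and in 8.53% of the 27025 promoters of the table. The Klrc2 and Klrc3 windows shared a long run of bases around their matches and overlapped annotated exons. Those of Klrb1a and Klrb1c were also alike around theirs, so the matches are not 6 separate occurrences. The T-box motif GTGTGA was found in 1 of the 23 against 7.56% of all promoters, and the ETS motif CAGGAAG in 1 of the 23 against 6.97%. The longest run held by at least 8 of the 11 Klra windows, a search set after these promoters had been read, was the 11 bases GCAATTTCCTC. It was found in the promoters of 8 Klra genes (Klra2, Klra3, Klra4, Klra5, Klra6, Klra8, Klra9 and Klra17) and of 6 other genes, 0.0518% of the table. Such a match is a description of the letters only. Klrc1 and Klrk1 are shown because they were abundant in both NK and CD8 T cells, with the RUNX core or its reverse complement ACCACA in capitals. Klra4, Klra9 and Klra2 are shown because they share the Klra run, in capitals, while their levels differed between cell types as given further on. All 5 windows are on the minus strand and are printed 5' to 3' along the gene. They span chr6:129678974-129679123 (Klrc1), chr6:129623865-129624014 (Klrk1), chr6:130067272-130067421 (Klra4), chr6:130193113-130193262 (Klra9) and chr6:131247363-131247512 (Klra2).
Klrc1: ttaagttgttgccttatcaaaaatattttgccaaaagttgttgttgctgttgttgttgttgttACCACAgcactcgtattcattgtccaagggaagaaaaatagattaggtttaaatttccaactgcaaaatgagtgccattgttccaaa
Klrk1: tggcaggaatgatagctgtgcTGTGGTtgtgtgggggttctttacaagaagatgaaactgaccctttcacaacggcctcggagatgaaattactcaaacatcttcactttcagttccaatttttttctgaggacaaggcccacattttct
Klra4: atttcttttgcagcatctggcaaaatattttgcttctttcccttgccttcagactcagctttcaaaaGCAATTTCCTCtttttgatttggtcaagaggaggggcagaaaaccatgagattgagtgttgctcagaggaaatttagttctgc
Klra9: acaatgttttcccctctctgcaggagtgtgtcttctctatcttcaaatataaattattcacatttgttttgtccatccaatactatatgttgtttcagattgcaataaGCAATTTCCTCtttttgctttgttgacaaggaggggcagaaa
Klra2: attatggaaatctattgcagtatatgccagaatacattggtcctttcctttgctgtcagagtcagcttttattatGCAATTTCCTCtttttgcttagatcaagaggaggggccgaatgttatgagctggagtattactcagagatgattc

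Cells were assigned by marker UMIs (unique molecular identifiers, 1 per captured molecule), with no member of the family in any gate. NK cells held an Ncr1 UMI and none of Cd3e or Cd3d. They numbered 238 and 266 in control libraries 1 and 2 and 440 and 434 in liproxstatin libraries 1 and 2. CD8 T cells (Cd3, Cd8a and Cd8b1, without Cd4 or Foxp3) numbered 269, 691, 849 and 973 in the same order. Regulatory T cells (Cd3 and Foxp3, without Cd8) numbered 48, 73, 130 and 149. Gamma-delta T cells (Cd3 and at least 2 Trdc UMIs, without Cd8b1, Cd4 or Ncr1) numbered 18, 16, 41 and 37, fewer than the 20 per library set as a minimum in both controls, so they were not tested for treatment. The NK gate also takes type 1 innate lymphoid cells, which cannot be told apart from NK cells by Ncr1. Median UMIs per cell ran from 9748 to 13088 in NK cells, 11180 to 14792 in CD8 T cells, 4737 to 7125 in regulatory T cells and 6924 to 11037 in gamma-delta T cells, and the liproxstatin medians were the lower ones in NK, CD8 T and regulatory T cells. B cells (20, 35, 21 and 33 cells) and macrophages (1448, 2587, 2828 and 3239) served as cell types outside the NK and T lineages. In NK cells Cd3e, Cd3d, Cd8b1 and Foxp3 were at 0 by the gate, and the 7 NK markers summed to between 13808 and 15417 CPM (UMIs of these genes scaled to a common gate total). Macrophage markers summed to 436 and 567 CPM in control and 407 and 336 in liproxstatin NK cells. In B cells they summed to 2183 and 5654 CPM in control and 12638 and 4348 CPM in liproxstatin libraries. B cell markers there summed to 3222 and 4794 CPM in control and 3097 and 4214 CPM in liproxstatin libraries. The part of macrophage RNA in the B cell values was not tested. Pairs of libraries shared 4 to 22 cell barcodes. The labels do not say whether the 2 libraries of a group are separate animals, so every p-value given here reflects how far these libraries differ and no more, a spread that could be technical.

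Levels are in CPM, the UMIs of a gene over all UMIs of the gate, scaled by 1000000. Because the assay counts 1 molecule per UMI at the 3' end, these levels can be compared between genes without a length correction. The family made up 3708 and 3419 CPM of control and 3323 and 3662 CPM of liproxstatin NK cells, and 2317, 2660, 2496 and 2329 CPM of CD8 T cells in the same library order. In gamma-delta T cells it was 989 to 1472 CPM and in regulatory T cells 163 to 565 CPM. In NK cells 17 of the 26 members averaged at least 10 CPM over the 4 libraries. The number was 13 in gamma-delta T cells, 9 in CD8 T cells, 6 in regulatory T cells, and 2 each in B cells and macrophages. In control library 2, 1 UMI was 4.43 CPM in gamma-delta T cells and 0.0848 CPM in CD8 T cells. Klra1 reached 116 CPM in gamma-delta T cells of control library 1 from 1 cell. Gates of few cells thus pass this cut on few UMIs, and the 13 and 9 cannot be ranked. Klra6 had no UMI in NK cells and 1 in CD8 T cells, and Klra8 had 1 and 0. Klrb1 (19 UMIs in NK cells, 0 in CD8 T cells), Klra17 (4 and 9) and Klrg2 (0 and 2) were also too low to enter the fits, which left 21 members in NK cells. The CD8 T fit left out Klrb1b, Klra1, Klra4 and Klra10 too.

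**Figure D1:**
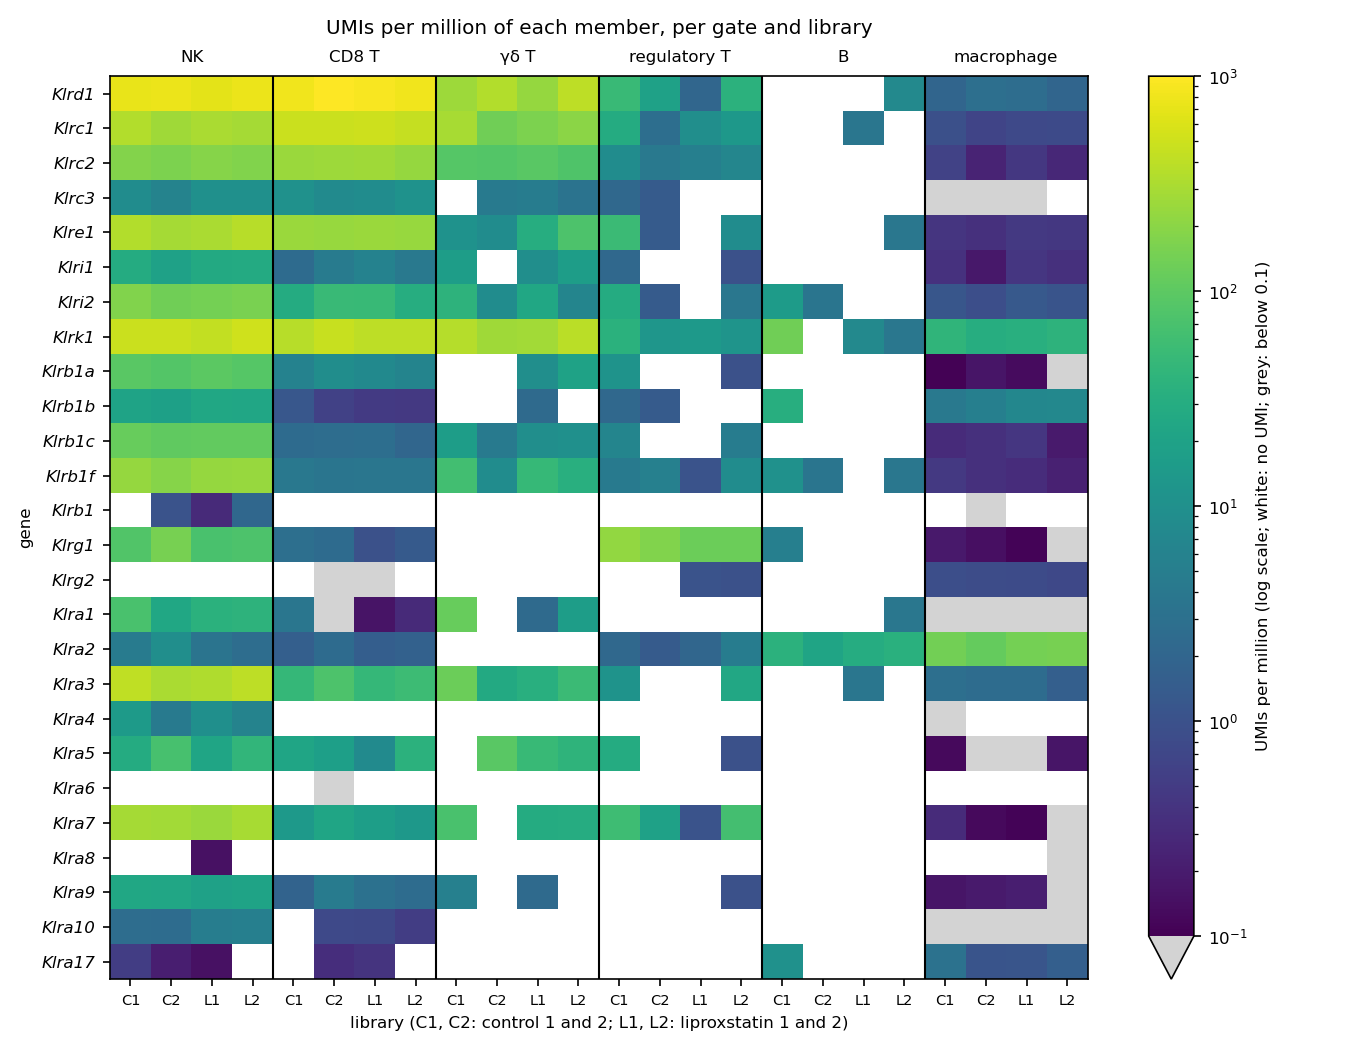
Heat map of the CPM of all 26 members (rows) in each gate and library (columns, C for control and L for liproxstatin), on a log colour scale with white for no UMI and grey for values below 0.1. NK cells fill most rows, CD8 T cells mainly the rows of Klrd1, Klrc1, Klrc2, Klre1 and Klrk1, regulatory T cells the Klrg1 row and macrophages the Klra2 and Klrk1 rows.

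Klrd1, whose CD94 protein pairs with the NKG2 proteins, was the most abundant member in both effector populations, at 747, 773, 690 and 773 CPM in NK cells and 812, 1012, 927 and 832 CPM in CD8 T cells (control 1, control 2, liproxstatin 1, liproxstatin 2). The 2 groups overlapped in both cell types. Klrc1, the inhibitory NKG2A partner, was at 343, 273, 314 and 284 CPM in NK cells and at 485, 470, 492 and 449 CPM in CD8 T cells, so every CD8 T value lay above every NK value. Klrc2, the activating NKG2C partner, was at 183, 162, 185 and 172 CPM in NK cells and 247, 260, 267 and 235 CPM in CD8 T cells. Klrc3 (NKG2E) stayed between 6.17 and 11.1 CPM in both. There were 1.66 to 1.88 Klrc1 UMIs per Klrc2 UMI in NK cells and 1.80 to 1.96 in CD8 T cells.

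Klrk1, the NKG2D receptor for stress-induced ligands, was at 479, 486, 430 and 513 CPM in NK cells and 372, 470, 403 and 402 CPM in CD8 T cells. Its adaptor Hcst was at 394, 349, 318 and 306 CPM in NK cells and 477, 521, 424 and 387 CPM in CD8 T cells. Tyrobp was at 1930.1 to 2159.6 CPM in NK cells and 54.2 to 92.2 CPM in CD8 T cells. Klre1, which pairs with the Klri proteins, was at 351, 291, 309 and 370 CPM in NK cells and 253, 243, 248 and 239 CPM in CD8 T cells. Its partners differed more: Klri2 was at 178, 137, 146 and 156 CPM in NK cells and 28.9, 51.0, 50.4 and 31.1 CPM in CD8 T cells, and Klri1 at 28.8, 19.4, 27.2 and 27.6 CPM against 2.48, 4.58, 5.84 and 4.11 CPM.

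The NKR-P1 genes named here, whose products bind Clec2 proteins, were higher in NK than in CD8 T cells in every library. They were not confined to the NK gate. Klrb1b had 4136 UMIs over all kept cells, of which the NK libraries held 78, 89, 160 and 129. Klrb1f was at 231, 185, 231 and 239 CPM in NK cells and 3.56 to 3.93 CPM in CD8 T cells. Klrb1c, which encodes NK1.1 in C57BL/6 mice, was at 117, 105, 108 and 111 CPM against 2.06 to 2.76 CPM. Klrb1a was at 93.3, 86.2, 96.7 and 88.2 CPM against 5.99 to 9.07 CPM, and Klrb1b, the inhibitory member, at 21.0, 18.9, 24.3 and 23.3 CPM against 0.457 to 1.24 CPM. Klrg1, an inhibitory receptor for cadherins found on mature NK cells and effector lymphocytes, was at 82.8, 154, 71.0 and 76.9 CPM in NK cells and 0.974 to 2.89 CPM in CD8 T cells.

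Among the Ly49 genes, counts labelled Klra3 and Klra7 led in NK cells. Klra3 was at 410, 310, 336 and 404 CPM in NK cells and 46.1, 75.2, 45.5 and 56.0 CPM in CD8 T cells. Klra7 was at 288, 278, 249 and 294 CPM in NK cells and 14.3, 22.3, 17.5 and 13.6 CPM in CD8 T cells. Klra1 (71.0, 23.8, 36.3 and 39.0 CPM) and Klra5 (28.5, 69.6, 22.7 and 42.2 CPM) varied more between NK libraries. Klra9 was at 19.6 to 24.5 CPM in NK cells. The last 300 bases of the Klra3 and Klra9 reference transcripts were 98.7% identical, so the counts of these 2 genes cannot be parted with certainty. The next closest pair, Klra5 and Klra6, was 87.7% identical over those bases. Klra4 had 175 UMIs in NK cells (4.47 to 15.1 CPM) and none in CD8 T cells. Against a floor of 3 UMIs over the 4 CD8 T libraries the ratio was 119.6, which takes UMIs as independent and is no lower bound. The Klra4 UMIs came from 20, 13, 29 and 17 NK cells.

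Levels in NK and CD8 T cells were compared by edgeR's quasi-likelihood test on summed counts, with the library as a block and Benjamini-Hochberg adjustment over 11375 genes. Of these genes 21.6% were higher and 21.7% lower in NK cells at an adjusted p under 0.05. Of the 21 members tested, 16 were higher in NK cells, 3 were lower and Klrc3 and Klra5 were not called. The members' median difference was 2.65 on the log2 scale, and the median of all genes was -0.0034. The largest fitted differences were those of Klra1 (5.88, SE 0.53), Klrb1f (5.82, SE 0.08), Klrg1 (5.72, SE 0.14), Klrb1c (5.38, SE 0.10) and Klrb1b (5.10, SE 0.22), apart from Klra4, which was at 0 in CD8 T cells. Klra7 (3.96), Klrb1a (3.53), Klra10 (2.75), Klra9 (2.73), Klra3 (2.65), Klri1 (2.45), Klri2 (1.87) and Klra2 (1.28) followed. Klre1 differed by 0.36 (SE 0.06, edgeR adjusted p = 9.76e-05) and Klrk1 by 0.15 (SE 0.06, edgeR adjusted p = 0.037), the smallest difference called. The 3 members lower in NK cells belonged to the CD94-NKG2 group, of which Klrc3 was not called: Klrc1 by -0.71 (SE 0.05), Klrc2 by -0.59 (SE 0.05) and Klrd1 by -0.32 (SE 0.05). The Klrk1 difference lost its call with no filter on low counts (0.11, edgeR adjusted p = 0.096). It also did so without control library 1 (0.10, edgeR adjusted p = 0.24) and without liproxstatin library 2 (0.10, edgeR adjusted p = 0.32). That of Klri2 lost its call without liproxstatin library 1 (2.01, edgeR adjusted p = 0.055) or 2 (1.73, edgeR adjusted p = 0.052).

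**Figure D2:**
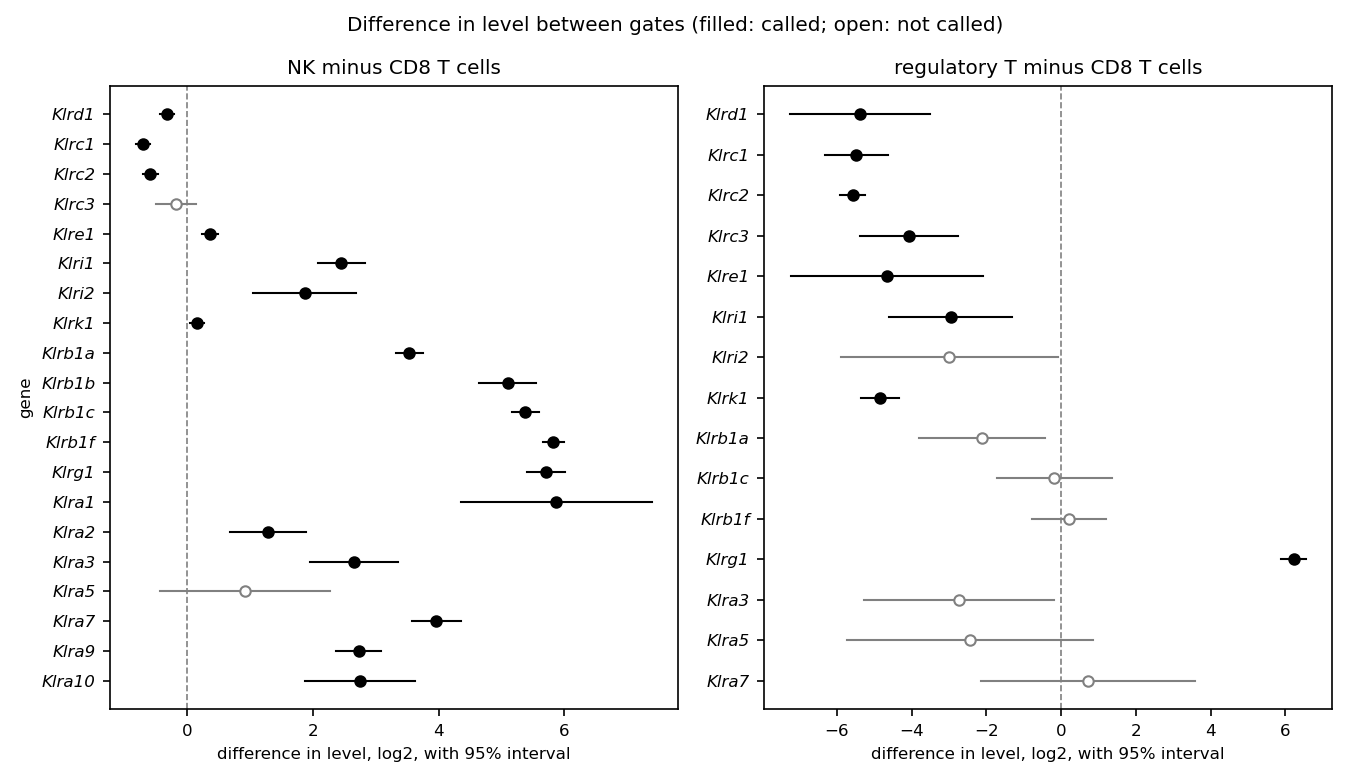
Difference in level between gates (log2, dots, with 95% intervals) for the members tested, NK minus CD8 T cells on the left and regulatory T minus CD8 T cells on the right. Filled dots passed an adjusted p of 0.05. On the left Klrd1, Klrc1 and Klrc2 lie just below 0 and most NKR-P1 genes and Klrg1 above 5; Klra4, with no UMI in CD8 T cells, is left out. On the right Klrg1 is the 1 member called higher.

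The family was also counted cell by cell, after each cell had been reduced at random to 3000 UMIs and shallower cells left out (4 to 12 NK and 0 to 15 CD8 T cells per library). At that depth a Klrd1 UMI was found in 84.5%, 85.1%, 84.7% and 87.4% of NK cells and in 85.5%, 89.9%, 89.2% and 87.1% of CD8 T cells. In macrophages, which should lack CD94, the share was 0.372% to 1.17%, and in B cells it was 0 in 3 of the libraries and 3.57% of 28 cells in liproxstatin library 2. Without thinning, Klrd1 was found in 94.0% to 97.2% of NK cells, 97.0% to 98.0% of CD8 T cells and 4.91% to 8.85% of macrophages, whose median depth was 23893 to 32195 UMIs. Klrc1 was found in 54.7%, 43.1%, 56.7% and 52.4% of thinned NK cells and in 71.8% to 72.9% of CD8 T cells. Of the cells with Klrc1, 87.7% to 90.3% of NK and 89.2% to 92.7% of CD8 T cells also had Klrd1. Klrk1 was found in 68.6% to 79.9% of NK and 64.7% to 72.4% of CD8 T cells.

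Each Ly49 gene was found in part of the cells. This was not particular to them. In thinned NK cells Klri2 was found in 26.7% to 34.4%, Klrb1c in 26.7% to 33.2% and Klrg1 in 10.9% to 24.4%. Klra3 was found in 44.0%, 37.4%, 36.7% and 45.5% of thinned NK cells, Klra7 in 29.7%, 28.2%, 25.3% and 29.4%, Klra5 in 3.72% to 8.02% and Klra1 in 4.65% to 6.90%. Of the NK cells, 33.9% to 44.2% showed no Klra gene at this depth, 35.6% to 42.4% showed 1, 14.2% to 19.0% showed 2 and 6.05% to 9.05% showed 3 or more. Of the CD8 T cells, 80.4% to 88.1% showed none. The median NK cell had UMIs of 6 members and the median CD8 T cell of 4, in every library. In full counts the 264, 112, 239 and 216 Klra1 UMIs of the NK libraries came from 25, 21, 29 and 31 cells. In CD8 T cells the 110, 213, 101 and 491 Klra5 UMIs came from 6, 29, 13 and 60 cells, so these levels of Klra1 and Klra5 rested on few cells. Klra3 and Klra7 were spread over more, with Klra3 UMIs in 124, 124, 196 and 225 NK cells and Klra7 UMIs in 101, 92, 144 and 158. The 10% of CD8 T cells with the most UMIs of a gene held 100% of the Klra5 UMIs in every library, and 22.6% to 25.1% of the Klrd1 UMIs.

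**Figure D3:**
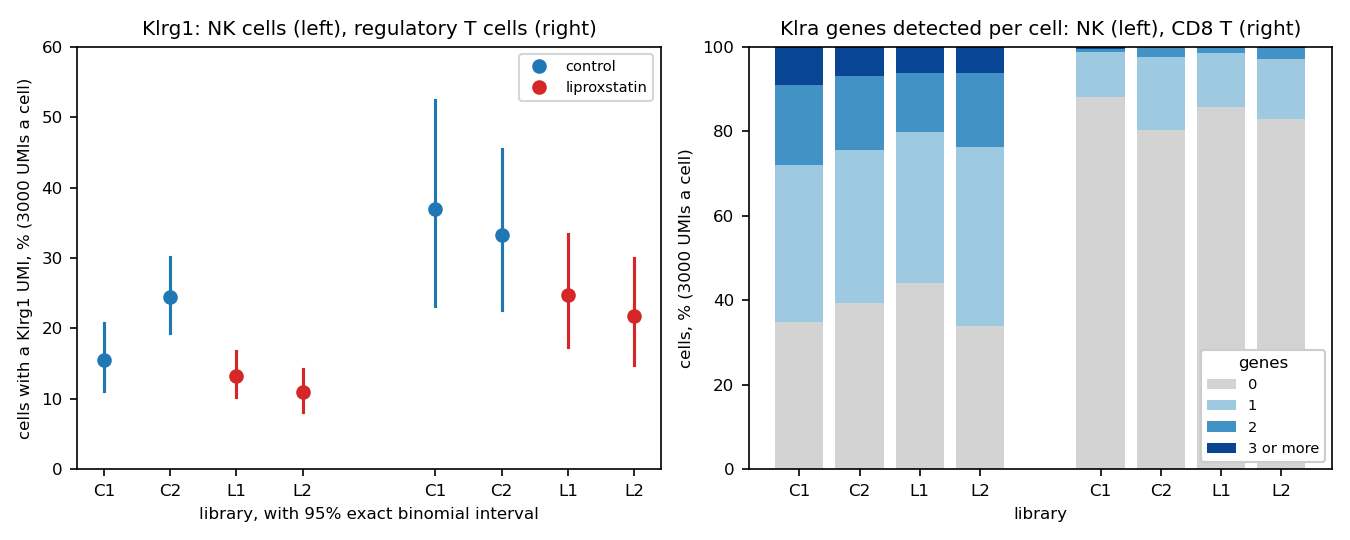
Left, share of cells with a Klrg1 UMI at 3000 UMIs a cell, in NK and regulatory T cells, per library with 95% exact binomial intervals (counting error only; blue for control, red for liproxstatin). Right, share of NK and CD8 T cells with 0, 1, 2 or 3 or more Klra genes detected at that depth. In both gates the liproxstatin points for Klrg1 lie below the control points. Klrb1f, not shown, separates as fully in NK cells, upward, as do other members in either direction. Of NK cells 33.9% to 44.2% and of CD8 T cells 80.4% to 88.1% show no Klra gene.

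The treatment comparison asks whether the receptors differ between tumour lymphocytes of liproxstatin-treated and control mice. In NK cells 1 of 10536 genes (0.00949%) passed an adjusted p of 0.05 in edgeR's quasi-likelihood test, 666 were below an unadjusted p of 0.05, and DESeq2 called 13. None of the 21 members tested was called by edgeR or DESeq2, and 2 of them, Klra2 and Klra10, were below an unadjusted 0.05. In CD8 T cells 108 of 11602 genes (0.931%) were called and none of the 17 members tested by either tool, with 1 (Klrg1) below an unadjusted 0.05. In regulatory T cells 11 of 7165 genes (0.154%) were called and none of the 5 members tested by either tool, with 1 (Klrg1) below an unadjusted 0.05. The members' median difference was -0.01 in NK and -0.06 in CD8 T cells on the log2 scale, against medians of all genes of -0.00088 and -0.0093. In gamma-delta T cells, not tested, the control values of Klrd1 (260 and 346 CPM) lay between its liproxstatin values (229 and 393 CPM). Those of Klrk1 overlapped likewise, at 354 and 266 CPM against 277 and 386 CPM.

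For the abundant members the intervals were narrow. In NK cells the difference, liproxstatin minus control on the log2 scale, was -0.04 for Klrd1 (95% interval -0.26 to 0.19), -0.02 for Klrc1 (-0.30 to 0.25), 0.07 for Klrc2 (-0.17 to 0.31), -0.01 for Klrk1 (-0.26 to 0.24) and 0.10 for Klre1 (-0.19 to 0.39). In CD8 T cells it was -0.06 for Klrd1 (-0.29 to 0.18), -0.02 for Klrc1 (-0.25 to 0.20), -0.02 for Klrc2 (-0.25 to 0.21), -0.07 for Klrk1 (-0.32 to 0.18) and -0.03 for Klre1 (-0.26 to 0.20). Every one of these intervals covers 0, and none reaches beyond 0.39 in either direction. For Ly49 genes carried by few cells the intervals were wide, from -3.24 to 2.04 for Klra5 in NK cells and from -3.92 to 4.34 in CD8 T cells. A change in those genes was not detectable at this number of cells and libraries.

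**Figure D4:**
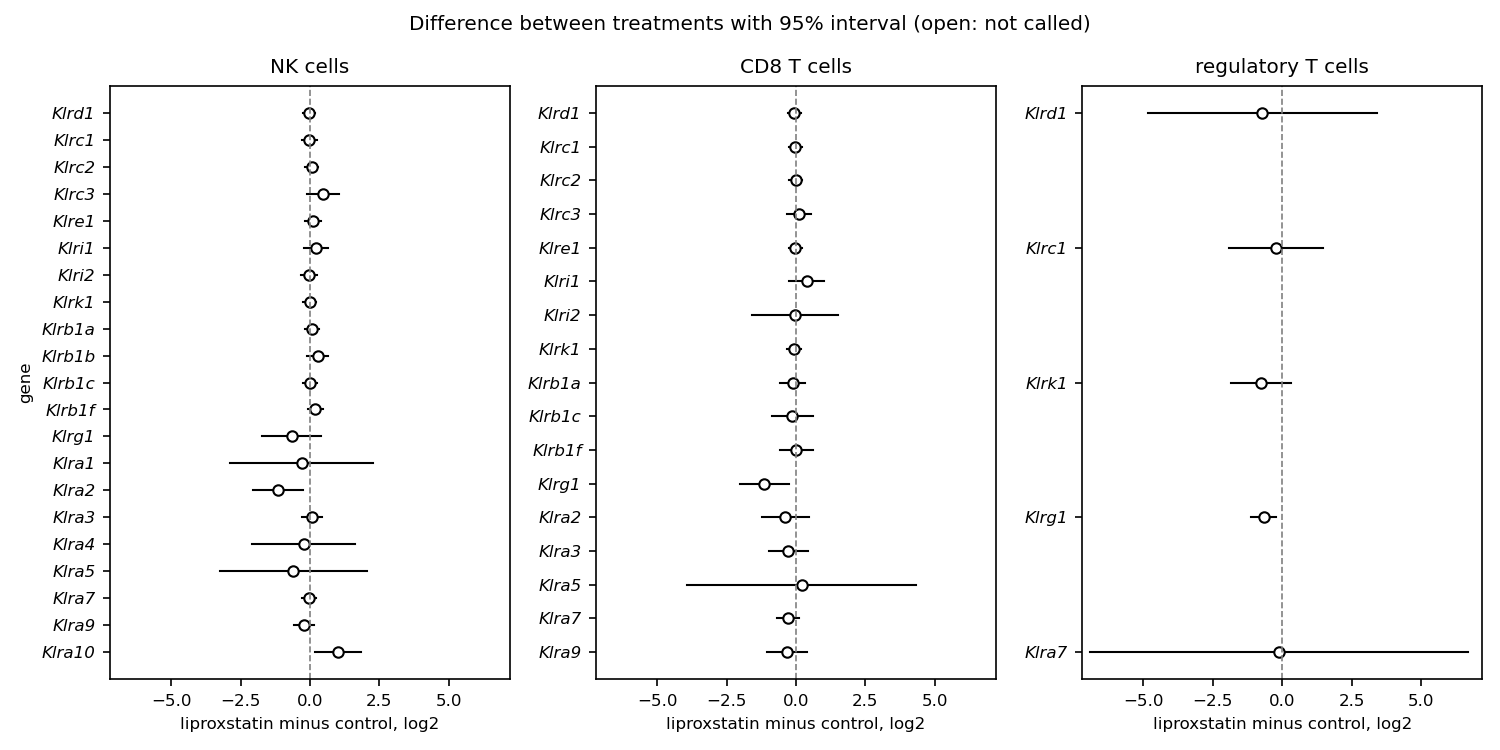
Difference between liproxstatin and control libraries (log2, open dots, with 95% intervals) for every member tested in NK, CD8 T and regulatory T cells. No member was called. Klrd1, Klrc1, Klrc2, Klre1 and Klrk1 sit between -0.07 and 0.10 in NK and CD8 T cells, Klrg1 lies below 0 in all 3 gates, and Klra5 has the widest intervals in NK and CD8 T cells.

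An interaction term, fitted in edgeR with libraries as blocks, set the response of CD8 T cells against that of NK cells. It called 24 of 11375 genes (0.211%) and none of the 21 members, of which none was below an unadjusted 0.05. The difference in response was 0.0042 for Klrd1 (95% interval -0.23 to 0.24) and 0.0044 for Klrc1 (-0.22 to 0.23). Single libraries moved some Ly49 calls. Wherever a treatment or interaction fit leaves out 1 library, here and further on, 1 arm holds a single library, which is assumed to vary like the other group, so its p-value has no replicate check in that arm. Without control library 1, against control library 2 alone, the highest for Klra3, the CD8 T difference of Klra3 was -0.55 (edgeR adjusted p = 0.021), against -0.28 with all libraries, and the interaction of Klra3 was -0.83 (edgeR adjusted p = 0.00056), against -0.34. Without control library 2, against control library 1 alone, the highest for Klra1, the NK difference of Klra1 was -0.89 (edgeR adjusted p = 0.00085), against -0.29, and its interaction, -2.21 with all libraries, was called (edgeR adjusted p = 0.0079). Against control library 2 alone the NK difference of Klra2 was -1.56 (edgeR adjusted p = 0.048), against -1.16. Klra2 was at 4.57, 9.37, 3.50 and 2.71 CPM in NK cells, and control library 2, the highest, also had the most macrophage marker UMIs (567 CPM) in this gate. The part of macrophage RNA in the Klra2 value was not tested.

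Klrg1 had both liproxstatin values below both control values in NK, CD8 T and regulatory T cells, though it was called in none of these 3 gates. Random labelling of 2 libraries against 2 separates the groups fully, in either direction, at a rate of 0.33. The share of all genes that separated in this way was not counted. In regulatory T cells the 2 controls had 228 and 175 CPM and both liproxstatin libraries 126 CPM. The groups did not overlap, and the difference was -0.67 (SE 0.21, 95% interval -1.13 to -0.21, edgeR unadjusted p = 0.0076, adjusted p = 0.57). With the replicate number as a block, a number not known to mark a shared animal or day, the estimate was -0.66 (SE 0.19, edgeR adjusted p = 0.020). At 3000 UMIs a cell a Klrg1 UMI was found in 37.0% and 33.3% of control and 24.8% and 21.8% of liproxstatin regulatory T cells, a difference of -11.9 percentage points for which the exact two-sided permutation test gave p = 0.33, the smallest 2 libraries against 2 can give. Left out for having under 3000 UMIs were 2 and 1 control cells and 9 and 25 liproxstatin cells. Without thinning the shares were 47.9% and 49.3% against 32.3% and 30.9%. In thinned NK cells the Klrg1 difference was -7.89 points. That of Klrb1f was 9.96 points, from 40.5% and 44.3% in control to 51.9% and 52.8% in liproxstatin. Klrb1b (3.73 points), Klrb1a, Klrc2, Klrc3 and Klra10 separated upward too, and Klra1, Klra2, Klra5 and Klra9 downward. Full separation was thus common among the members in thinned NK cells. The exact two-sided permutation test gave p = 0.33 for each of these members. Without thinning the Klrb1f groups overlapped. In NK cells Klrg1 differed by -0.66 (95% interval -1.73 to 0.40, edgeR adjusted p = 0.87), with control library 2 at 154 CPM and the other 3 between 71.0 and 82.8 CPM. Without control library 1 the difference was -1.04 (SE 0.12, edgeR adjusted p = 0.00071), with the high control library 2 as the only control and the spread taken from the liproxstatin libraries. In CD8 T cells, where 3 to 7 cells per library held a Klrg1 UMI, it differed by -1.15 (SE 0.42, edgeR adjusted p = 0.29). Macrophage markers summed to 654 and 583 CPM in control and 556 and 409 CPM in liproxstatin regulatory T cells, while Klrg1 itself was at 0.0486 to 0.188 CPM in macrophages. The 3 NK libraries other than control 2 held 2.13 to 39.0 CPM of fibroblast markers and control 2 held 353 CPM, and the part of this in its Klrg1 value was not tested.

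Regulatory T cells carried Klrg1 and little else of the family. Against CD8 T cells, 16.3% of 10310 genes were higher and 16.7% lower in regulatory T cells (edgeR, library as a block). Of 15 members tested, Klrg1 was the 1 called higher (6.23, SE 0.16, edgeR adjusted p = 4.14e-16), and 7 were called lower: Klrc2 (-5.58), Klrc1 (-5.48), Klrd1 (-5.39), Klrk1 (-4.84), Klre1 (-4.66), Klrc3 (-4.07) and Klri1 (-2.96). The UMIs of the other 25 members in regulatory T cells (151, 51, 35 and 199 per library) came from few cells. Cells with at least 20 such UMIs numbered 3 in control library 1, where they held 95.4% of them, 1 in control library 2 (66.7%), none in liproxstatin library 1 and 2 in liproxstatin library 2 (81.9%). Those of control library 1 and liproxstatin library 2 all had Ncr1 or at least 2 Trdc UMIs and held 263 of 270 and 543 of 551 of the gate's Gzma UMIs. The cell of control library 2 had neither and held 1 of 13 Gzma UMIs. The Klrd1 call was lost without control library 2 (-5.23, edgeR adjusted p = 0.058) and without liproxstatin library 2 (-5.79, edgeR adjusted p = 0.053). The Klre1 call was lost with doublets kept (-4.44), with no filter on low counts (-4.73) and without control library 2, liproxstatin library 1 or liproxstatin library 2 (-4.54 to -4.13), and the Klri1 call with doublets kept (-1.69) and without liproxstatin library 1 (-2.26, edgeR adjusted p = 0.077). Removing cells with Ncr1 or at least 2 Trdc UMIs from both gates, an alternative chosen after seeing these values, raised the members called lower from 7 to 11, as did leaving out control library 1. In the treatment comparison, leaving out liproxstatin library 2 gave calls for Klrd1 (-3.90), Klra7 (-4.92) and Klre1 with 1 liproxstatin library left. In control library 2, 1 cell held 11 of the 14 Klrd1 UMIs and 1 cell all 14 Klra7 UMIs.

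Gamma-delta T cells held less of the CD94-NKG2 genes than CD8 T cells. Of 10189 genes 7.16% were higher and 8.61% lower in gamma-delta T cells (edgeR, library as a block). Of 16 members tested, 6 were lower: Klre1 (-2.95, SE 0.45), Klrd1 (-1.69, SE 0.12), Klrc2 (-1.66, SE 0.16), Klrc1 (-1.40, SE 0.14), Klri2 (-1.26, SE 0.32) and Klrk1 (-0.49, SE 0.13). Klrk1, at 354, 266, 277 and 386 CPM, was the most abundant member in this gate in control library 1 and liproxstatin library 1, and Klrd1 (260, 346, 229 and 393 CPM) in the other 2 libraries. The NKR-P1 genes Klrb1f (60.9, 8.87, 47.8 and 33.6 CPM, a difference of 3.15, SE 0.42) and Klrb1c (16.6, 4.43, 9.55 and 10.1 CPM, a difference of 1.84, SE 0.68, edgeR adjusted p = 0.048) were higher. Klra1 was called higher too (4.77, SE 0.71), but 21 of its 27 UMIs came from 1 cell of control library 1. The Klrb1c call rested on 3, 1, 4 and 3 UMIs per library. It was lost with doublets kept (1.70), with no filter on low counts (1.77) and without control library 1, liproxstatin library 1 or liproxstatin library 2. Klre1 lost its call without liproxstatin library 1, and Klrk1 and Klri2 without control library 2. Without single libraries Klra5 (1.56 without control library 1, 1.66 without liproxstatin library 2) and Klra7 (1.22 without control library 2) gained one. Klrg1 had no UMI in the 112 gamma-delta T cells.

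Within CD8 T cells the receptors were compared between cells with a Pdcd1 UMI, a marker of antigen-stimulated and exhausted cells, and cells with Il7r and no Pdcd1. The Il7r cells numbered 11, 33, 28 and 23 per library, so this comparison rests on few cells. Of 9782 genes 7.35% were higher and 6.34% lower in Pdcd1 cells (edgeR, library as a block). Of 14 members tested, 9 were higher and none lower, with an unadjusted p under 0.05 for 1 member of lower level, Klrb1f (-1.55, edgeR adjusted p = 0.10). Klre1 (2.16, SE 0.18), Klrd1 (1.41, SE 0.11), Klrc1 (1.35, SE 0.13), Klrc2 (1.26, SE 0.16) and Klrk1 (0.58, SE 0.13) were all higher, and so was Klri2 (1.63, SE 0.50). Klrd1 averaged 919 CPM in Pdcd1 cells and 337 CPM in Il7r cells. Klra5, Klra3 and Klrb1a were called higher from 0, 3 and 1 UMIs in the Il7r cells. Against a floor of 3 UMIs over the 4 libraries the Klra5 ratio was 8.21, which takes UMIs as independent and is no lower bound. A Klra5 UMI was found in 2.23%, 4.20%, 1.53% and 6.17% of all CD8 T cells. The few Il7r cells cannot set a bound for a gene carried by so few cells. The Klra3 ratio was 22.3 (95% exact interval 7.62 to 108) and the Klrb1a ratio 8.99 (1.60 to 356), intervals that cover counting error only. Klrb1a lost its call without control library 1, control library 2 or liproxstatin library 2. Klra7 gained one without liproxstatin library 1, the 1 library with Klra7 UMIs in Il7r cells, 11 from 1 cell.

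Outside the lymphocytes, some members were also found in macrophages, Klra2 at a higher level than in NK cells and Klrk1 and Klrb1b at lower ones. Klra2 was at 140, 114, 146 and 151 CPM in macrophages, with a UMI in 81.9% to 87.0% of cells, against 2.71 to 9.37 CPM in NK cells. At 3000 UMIs a cell the share was 34.4%, 26.2%, 31.5% and 35.2% in macrophages and 0.930% to 1.53% in NK cells. Klrk1 was at 40.7, 30.9, 33.5 and 37.9 CPM in macrophages, in 41.7% to 48.0% of cells, and in 8.56% to 11.4% of thinned cells. Thinned B cells had 1 in 20 cells of control library 1 and none in the other 3. There were 10.5 to 20.3 Klrk1 UMIs per Klrd1 UMI in macrophages, 0.623 to 0.664 in NK cells and 0.434 to 0.483 in CD8 T cells. The source of the Klrk1 RNA in the macrophage gate was not tested. Klrb1b was at 4.13 and 5.38 CPM in control and 7.23 and 7.38 CPM in liproxstatin macrophages. Klrg2 had 249 UMIs in macrophages (0.741 to 0.918 CPM) and none in NK cells, and Klra17 479 UMIs (1.09 to 3.19 CPM). The other 21 members were at most 2.93 CPM in any macrophage library.

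In the treatment fit of macrophages 265 of 14344 genes (1.85%) were called and 1 of 19 members. Klrb1b was higher with liproxstatin by 0.65 (SE 0.13, 95% interval 0.37 to 0.93, edgeR adjusted p = 0.026), with both liproxstatin libraries above both controls. The call was lost without liproxstatin library 1 (0.68, edgeR adjusted p = 0.15) or 2 (0.61, edgeR adjusted p = 0.12). Klra2 differed by 0.26 (SE 0.11, edgeR adjusted p = 0.31) and Klrk1 by 0.04 (SE 0.17, edgeR adjusted p = 0.96). With 1 control library left, Klra2 was called without control library 1 (0.44, edgeR adjusted p = 0.019), and Klra17 without control library 2 (-1.19, edgeR adjusted p = 6.71e-05) against -0.54 with all libraries.

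**Figure D5:**
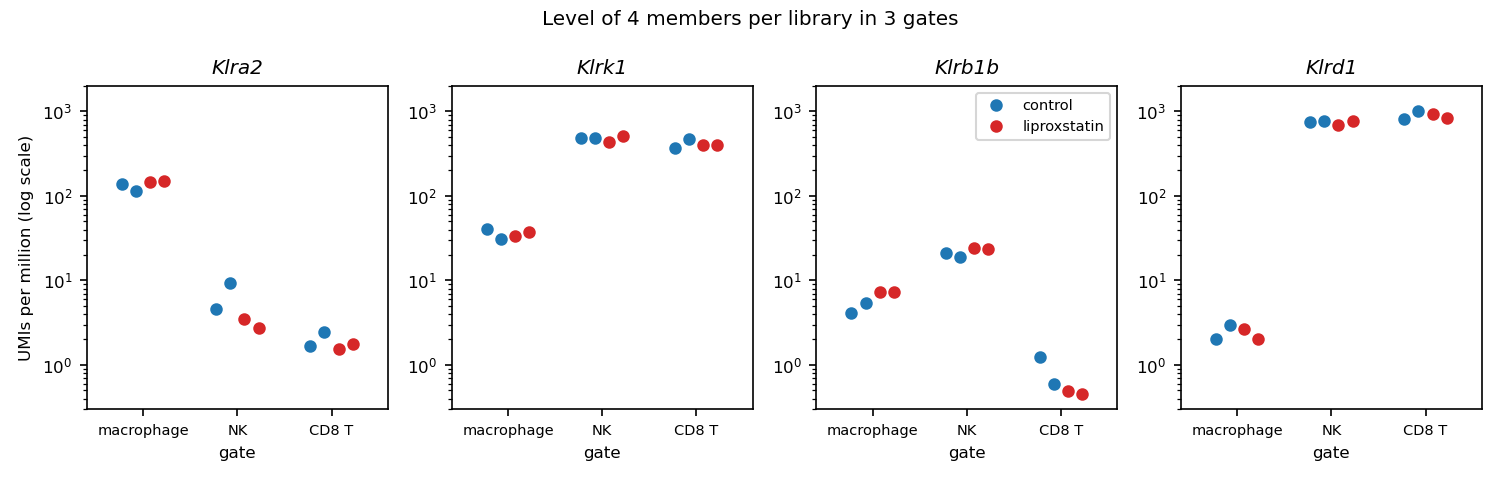
Level of Klra2, Klrk1, Klrb1b and Klrd1 (CPM, log scale) in macrophages, NK cells and CD8 T cells, 1 point per library (blue for control, red for liproxstatin). Klra2 is highest in macrophages at 114 to 151, while Klrd1 is at 2.00 to 2.93 there and at 690 to 1012 in the lymphocyte gates.

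Genes that work with the receptors were counted in 4 lists. Of 15 adaptors and signalling genes all were tested in NK and CD8 T cells. None was called by edgeR in NK cells (1 below an unadjusted 0.05). In CD8 T cells 6 were below an unadjusted 0.05, as were 1155 of all 11602 genes, and 1 was called. This was Ptpn11, the SHP-2 phosphatase that inhibitory receptors recruit (48.1 and 43.9 CPM in control, 75.0 and 68.7 CPM in liproxstatin, 0.65, SE 0.12, edgeR adjusted p = 0.0089). In regulatory T cells 1 of 12 was called, with 2 below an unadjusted 0.05. The gene called was Fcer1g, an adaptor of Fc and activating NK receptors. It was at 234 and 185 CPM in control and 80.6 and 90.6 CPM in liproxstatin (-1.28, SE 0.22, edgeR adjusted p = 0.036). Fcer1g was at 2920 to 3255 CPM in macrophages, and the part of macrophage RNA in the regulatory T cell value was not tested. The NKG2D adaptor Hcst differed by -0.23 (SE 0.10, edgeR adjusted p = 0.78) in NK, -0.31 (SE 0.11, edgeR adjusted p = 0.28) in CD8 T and -0.49 (SE 0.20, edgeR adjusted p = 0.81) in regulatory T cells. Both liproxstatin values lay below both controls in each of these gates, a separation whose share over all genes was not counted. Of 19 ligand genes 15 were found. edgeR called none among 8 tested in NK and CD8 T cells (1 below an unadjusted 0.05 in each), 5 in regulatory T cells (0) and 12 in macrophages (2), where the class I genes H2-D1 (-0.08), H2-K1 (0.04) and H2-T23, the Qa-1 ligand of CD94-NKG2A (0.04), and the Klrb1b ligand Clec2d (-0.01) stood near 0. Of 12 factors tied to receptor expression edgeR called none in NK, CD8 T or regulatory T cells (3, 1 and 2 below an unadjusted 0.05), and Runx3 was called in macrophages, at 64.0 and 62.5 CPM in control and 90.7 and 84.4 CPM in liproxstatin (0.51, SE 0.08, edgeR adjusted p = 0.0098). Of 10 other NK-type receptors, 2 were called in CD8 T cells, where 5 were below an unadjusted 0.05 in edgeR. None was called in NK cells, regulatory T cells or macrophages (0, 0 and 2 below an unadjusted 0.05). Slamf6, a marker of stem-like T cells, was at 7.64 and 10.4 against 18.7 and 22.8 CPM (1.15, SE 0.19, edgeR adjusted p = 0.0026), and the inhibitory receptor Tigit at 9.09 and 9.41 against 18.5 and 13.8 CPM (0.79, SE 0.18, edgeR adjusted p = 0.037). The median differences of the 4 lists lay between -0.06 and 0.11 in NK cells, between -0.04 and 0.09 in CD8 T cells, between -0.07 and 0.25 in regulatory T cells and between -0.01 and 0.20 in macrophages. The medians of all genes in the latter 2 gates were 0.0051 and -0.0029.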

How the data were processed

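The deposited counts are whole UMI counts per gene and cell barcode in filtered matrices, 1 per library, made with Cell Ranger 6.1.1 per the file headers (version 4 per the submitters' processing notes) against the mouse build mm10. The members and gene lists were chosen with earlier results of these data known, and no result that was already known is given as independent support. Barcodes with at least 200 genes and under 15% mitochondrial UMIs were kept, and the 3.30% to 7.44% of cells with the highest Scrublet scores in each library, more where barcodes were more, were left out as doublets. This left 25730 cells of 29092 barcodes, from libraries of 83129874 to 168597163 UMIs. Cells were gated by lineage markers, with a ceiling of 0.3% on myeloid UMIs in the NK, CD8 T, gamma-delta T and regulatory T gates only. UMIs were summed per gate and library and tested with edgeR 4.0.16 (R 4.3.3): TMM factors, filterByExpr, quasi-likelihood F tests and Benjamini-Hochberg adjustment over all genes tested, a call being an adjusted p under 0.05. The standard error is the log2 fold change over the square root of F. DESeq2 1.42.0 was an alternative, along with other scaling, filters, gates, cell numbers, the replicate block and leaving out each library. The fits were checked on simulated counts. Python 3.11.15, numpy 2.4.6, scipy 1.17.1 and scanpy 1.11.5 were used. Per-cell shares were taken at 3000 UMIs a cell, with exact binomial intervals that cover counting error only. Values in all libraries were given for members averaging at least 10 CPM in a gate and for any member called, other members by range and count, and list genes where called or among the 4 of highest CPM. Hcst in the treatment comparison and the single members named at low counts were chosen after their values were seen. Coordinates are from GENCODE M21, promoters from RefSeq.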

Additional observations from a re-analysis of the deposited data

How the results depend on the processing

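Of 978 refitted values of single members, 926 kept their status as called or not called, 27 lost a call and 25 gained one. None reversed while called. Among the 926, 97 values that were not called changed sign. Counts of all genes called under treatment moved most. In NK cells (1 gene) they were 13 with DESeq2, 7 with all 4 lymphoid gates in one fit, 189 with no filter on low counts, 12 with a stricter gate and 3 to 269 without single libraries, with 0 to 2 members called. In CD8 T cells (108) they were 68 with DESeq2, 13 in one fit, 43 with equal cells, 17 with no ceiling on myeloid UMIs, 347 with no filter and 9 to 431 without single libraries (0 to 1 member). In regulatory T cells (11) they were 7 in one fit, 7 with no ceiling, 109 with no filter (1 member, Klra5) and 40 to 117 without single libraries (0 to 3 members). In macrophages (265) they were 941 with no filter and 106 to 717 without single libraries (0 to 2 members). Interaction calls (24) were 15 with doublets kept, 106 with no filter (1 member, Klra1) and 27 to 123 without single libraries (0 to 1 member). Leaving out a library gave 1016 to 1400 genes called between gamma-delta and CD8 T cells (1607), 798 to 1196 between Pdcd1 and Il7r cells (1339), and 5 to 11 members lower in regulatory than CD8 T cells (7, or 11 without Ncr1 or Trdc cells). The cause of these shifts was not tested. The treatment difference in the share of cells with Klrd1 was 1.25 percentage points in NK cells, -3.98 at 1500 UMIs and -0.15 to 2.64 without single libraries. In CD8 T cells it was 0.45 and -1.76 to 2.65.

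The replicate block, which uses label numbers that are not said to mark shared animals or days and that differ from numbers in the names of the deposited files, called 22 genes in NK cells, 320 in CD8 T cells and 188 in regulatory T cells, where 1 member, Klrg1, was called. Deviations of same-numbered libraries correlated at 0.10 in NK, 0.11 in CD8 T and 0.22 in regulatory T cells, over 2 pairs. The alternatives planned for gamma-delta T cells under treatment were not run, since both controls held fewer than 20 cells. The 2 libraries a group limit every treatment statement, and Ly49 genes carried by few cells limit it further.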

Other observations

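The share of kept cells in each gate was also read. NK cells made up 5.29% ± 1.48 (SD, n = 2) of control and 5.57% ± 0.26 of liproxstatin libraries. CD8 T cells made up 9.10% ± 2.73 and 11.6% ± 0.69, regulatory T cells 1.22% ± 0.080 and 1.77% ± 0.11, and gamma-delta T cells 0.368% ± 0.16 and 0.497% ± 0.054. The exact two-sided permutation test gave p = 1 for NK, 0.67 for gamma-delta T and 0.33 for CD8 T and regulatory T cells, 0.33 being the smallest that 2 libraries against 2 can give. In B cells Klrk1 was at 137 CPM in control library 1, where 24 of its 26 UMIs came from 1 cell, and at 0 to 7.54 CPM in the other 3 libraries.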
